A study of Mus musculus with 5 samples.

Results

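The nuclear genes of oxidative phosphorylation were examined in a chromatin map of striatal neurons from 8-week-old C57BL/6 mice. The genes were taken by symbol from the authors' region lists: the Nduf genes of complex I, Sdha to Sdhd of complex II, the Uqcr genes of complex III, Cox4 to Cox8 of complex IV and the Atp5 genes of the ATP synthase, complex V. The symbols led to 87 genes. Cox7b2, Cox8b and Cox8c, isoforms of the same families that appeared in no list, were added so that shares are over 90 genes, of 21031 protein-coding genes in all. Ndufb1, Ndufb4b and Ndufb4c also match the symbols in the gene table but appear in no list, and they are outside the 90. Common members therefore entered only when some region named them, which raises their shares, whereas the isoforms did not have to be listed. Of the 90, 8 are isoforms used in particular tissues and 82 are common members. The common members are 75 subunits and related factors of the complexes, 4 assembly factors of complex I, and Atp5s, Atp5sl and Cox4nb, which share the symbols without being subunits.

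Nuclei were sorted on NeuN, a neuronal marker, and the labels name their cell type as medium spiny neuron, the inhibitory projection neuron of the striatum. NeuN does not separate these from other striatal neurons. Chromatin immunoprecipitation with sequencing was done once each for H3K27me3, H3K4me3, H3K27ac and RNA polymerase II (Pol II), and 1 input library served as the reference for the authors' lists. No allele or treatment is labelled, and the labels do not say how many animals gave the nuclei. With 1 library per antibody there is no replicate and no test across samples. Every difference given here is a description of these libraries.

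H3K4me3 sits at promoters and H3K27ac at active promoters and enhancers. Pol II transcribes the genes, and H3K27me3 is the mark of the Polycomb repressive complex. The respiratory chain passes electrons from NADH (complex I) or succinate (complex II) through complex III to oxygen at complex IV, and the proton gradient this builds drives the ATP synthase. Neurons rely on this pathway for most of their ATP. Several subunits of complex IV come in a common form and in forms used in muscle, lung or testis.

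A gene is said to carry a mark when at least 1 region of that list names it. The lists hold regions near transcription starts. Each region has a score that is the authors' own value relative to input, and whether it is linear or logarithmic is not given in the sources used here. The lowest listed score was 2.0, and the score is used here only to rank genes within 1 list. A percentile is the place of a score among all protein-coding genes with a region in the same list, so that the median of all such genes is at 50. How deeply each library was sequenced cannot be read from region lists. The lists held 13142 H3K4me3, 9781 H3K27ac, 7799 Pol II and 8219 H3K27me3 regions. As a check of the label, 10 of 10 medium spiny neuron markers and 5 of 5 pan-neuronal markers carried H3K4me3, H3K27ac and Pol II. H3K27me3 was also listed at 5 of the 10 (Drd1a, Drd2, Adora2a, Penk and Tac1) and at 0 pan-neuronal markers. H3K4me3 was listed at 3 of 5 astrocyte, 3 of 5 oligodendrocyte, 1 of 5 microglial and 3 of 5 endothelial markers. H3K27me3 was at 5, 2, 2 and 5 of them in that order. None of 5 astrocyte, 5 microglial and 5 endothelial markers carried H3K27ac or Pol II. Of 5 oligodendrocyte markers 1 did, the myelin gene Mbp, with scores of 7.01 for H3K27ac and 2.24 for Pol II, and the part of oligodendrocyte nuclei in any result here was not tested. A region carried by some of the nuclei and a weaker region carried by all of them cannot be told apart in a pooled library.

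Oxidative phosphorylation genes carried the active marks almost throughout. H3K4me3 was listed at 85 of the 90 genes (94.4%), against 68.4% of all protein-coding genes. H3K27ac was listed at 83 of 90 (92.2%), against 51.5% of all protein-coding genes. Pol II was listed at 79 of 90 (87.8%), against 41.7%. H3K27me3 was listed at 19 of 90 (21.1%), against 42.5%. The set therefore held more genes with each active mark and fewer with H3K27me3 than protein-coding genes at large. With the 3 unlisted Nduf genes counted in, the shares over 93 genes were 91.4%, 89.2%, 84.9% and 20.4%.

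The usual state of a member was H3K4me3, H3K27ac and Pol II without H3K27me3. That combination was found at 65 of 90 genes (72.2%), against 34.8% of all protein-coding genes. The 4 antibodies were all listed at 14 of 90 (15.6%), against 5.93% of all protein-coding genes. Among genes that carried the 3 active marks the share with H3K27me3 was 14 of 79 members (17.7%), against 14.6% of all such protein-coding genes, so that within active genes the members were near the background.

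These shares depended on which regions were kept. In the upper 50% of each list by score, H3K4me3 was at 67.8% of members, against 36.9% of all protein-coding genes, H3K27ac at 51.1%, against 26.1%, and Pol II at 38.9%, against 21.2%. With each list held to its 7799 highest regions, H3K4me3 was at 82.2% of members, against 43.5%, H3K27ac and Pol II were each at 87.8%, against 41.7%, and H3K27me3 was at 21.1%, against 41.1%. The active state without H3K27me3 was then found at 60 members, against 29.8% of all protein-coding genes. Members thus kept the higher share of active marks under both limits. When regions also listed for a gene outside the set were left out, H3K4me3 was at 46.7% of members, below the 50.8% of all protein-coding genes with a region listed for them alone. H3K27ac was then at 52.2%, against 37.9%, Pol II at 48.9%, against 29.8%, and H3K27me3 at 6.67%, against 29.1%. The active state without H3K27me3 was at 35 of 90 genes (38.9%), against 24.2%. In this count, for members and background alike, a gene whose H3K27me3 regions were all shared passed as without H3K27me3. Atp5k, Ndufa10, Ndufb7, Ndufb8, Ndufaf4 and Ndufa4l2 entered it in this way.

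**Figure D1:**
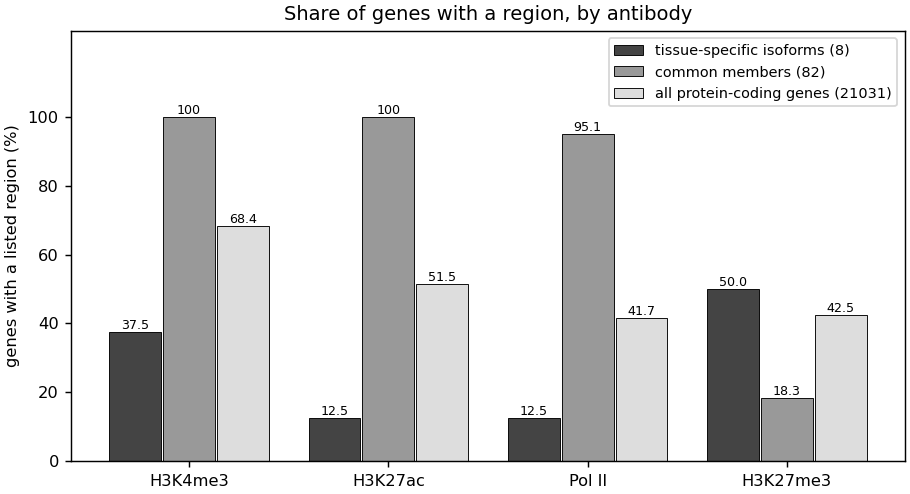
Percent of genes with a listed region of each antibody, for the tissue-specific isoforms, the common members and all protein-coding genes. Of the 8 isoforms, 3 carried H3K4me3 and 1 carried H3K27ac, while all 82 listed common members carried both.

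The breadth of the active marks did not extend to their rank. The median H3K4me3 score of members was 8.11 and the median of all protein-coding genes with the mark was 7.32, which put the median member at percentile 61.0. For H3K27ac the medians were 4.18 in members and 4.06 in all genes, at percentile 52.7. For Pol II they were 2.70 in members and 2.79 in all genes, at percentile 44.6. Members thus lay a little above the middle of the H3K4me3 list and a little below the middle of the Pol II list. Without the regions also listed for genes outside the set, the median member was at percentile 59.0 for H3K4me3 and 53.7 for H3K27ac. For Pol II it was at 31.9, well below the middle. Under the rule for alternative settings, this was not counted as moved from 44.6. Pol II scores close to the lowest listed, below 2.5, were held by 34 of 79 members (43.0%), against 31.8% of all genes with Pol II. A gene just under the lowest listed score would appear as unmarked.

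Along the members, genes that ranked high for one active mark tended to rank high for the others. Spearman's rho across members was 0.62 between H3K4me3 and H3K27ac (83 genes), 0.51 between H3K4me3 and Pol II (79 genes) and 0.66 between H3K27ac and Pol II (79 genes). The same values across all protein-coding genes were 0.70, 0.48 and 0.67. These are descriptions across genes, which share the 4 libraries and in part the same regions.

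**Figure D2:**
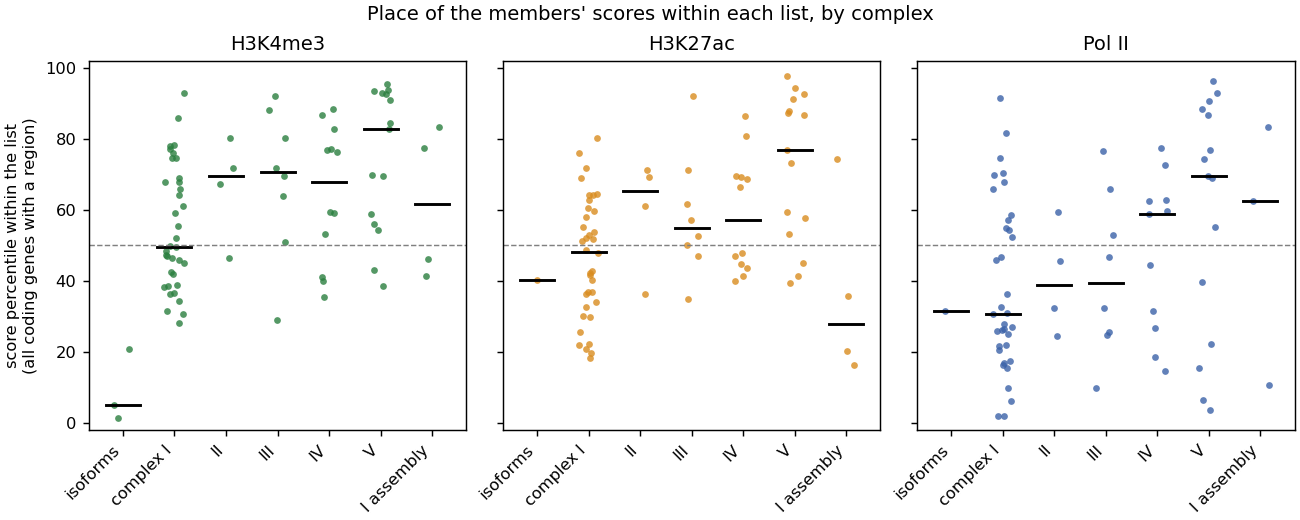
Percentile of each member's score within each active list, 1 point a gene, for the isoforms, each complex and the complex I assembly factors, with bars at the group medians. Complex V sits highest, with median percentiles of 82.9 for H3K4me3, 77.0 for H3K27ac and 69.6 for Pol II, and complex I is at 49.6, 48.2 and 30.5. Regions also listed for other genes are included.

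Complex I, the NADH dehydrogenase, gave 36 subunit genes in the lists, all of which carried H3K4me3 and H3K27ac (92.3% of 39 with the unlisted Ndufb1, Ndufb4b and Ndufb4c). Ndufc1, an accessory membrane subunit, was the only one of them without a Pol II region. The median scores were 7.30 for H3K4me3, 3.99 for H3K27ac and 2.48 for Pol II, at percentiles 49.6, 48.2 and 30.5. Complex I was therefore in the middle of the histone lists and in the lower part of the Pol II list.

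The 7 core subunits of complex I, which bind the flavin and the iron-sulfur clusters that carry the electrons, ranked lower still. Their median percentiles were 38.9 for H3K4me3, 36.7 for H3K27ac and 26.4 for Pol II, against 52.0, 48.6 and 30.8 for the 29 accessory subunits. Ndufv2, an iron-sulfur subunit, was the highest core gene for H3K27ac and Pol II, with scores of 8.63 for H3K4me3, 6.06 for H3K27ac and 3.63 for Pol II. Ndufs1, the largest iron-sulfur subunit, had 8.64, 5.29 and 3.39 in the same order. Ndufs8, which carries a pair of clusters, had 6.55, 3.11 and 2.03, the last of these close to the lowest listed score. Ndufv1, which binds the flavin, had 6.36, 2.81 and 2.41 and also an H3K27me3 region of score 4.62. Ndufs7, another iron-sulfur subunit, had 6.53, 3.53 and 2.24 for the active marks, in an H3K4me3 region of 26.5 kb that was the second widest of the set. The core subunits thus did not share a level, although their products are built into the complex together.

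Among the accessory subunits, Ndufb5 had the highest H3K4me3 score, 11.2, with 4.19 for H3K27ac and 2.72 for Pol II. Ndufb10 had the highest Pol II score of complex I, 4.18. Ndufa8 tied with Ndufs8 at the bottom, at 2.03. Of the 4 assembly factors under the rule, which help to build complex I and are not part of it, Ndufaf3 ranked highest for Pol II, at 3.71, with 9.39 for H3K4me3 and 5.51 for H3K27ac. Its Pol II region, 13.7 kb, was the widest of the set, and its H3K4me3 region was also listed for 4 other genes, among them Dalrd3 and Impdh2. Ndufaf2 had 9.96, 2.73 and 2.16 for H3K4me3, H3K27ac and Pol II. Ndufaf1 had no Pol II region, 6.74 for H3K4me3 and 2.88 for H3K27ac.

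All 4 genes of complex II, succinate dehydrogenase, carried the 3 active marks and none carried H3K27me3. Sdha, the flavoprotein that oxidises succinate, scored 8.57 for H3K4me3, 3.51 for H3K27ac and 2.99 for Pol II. Sdhb, the iron-sulfur subunit, scored 8.92, 5.13 and 2.38. The membrane anchors Sdhc and Sdhd scored 7.08 and 9.65 for H3K4me3, 5.26 and 4.63 for H3K27ac, and 2.72 and 2.51 for Pol II. The gene with the highest Pol II score of the 4, Sdha, had the lowest H3K27ac score.

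The 8 genes of complex III, the cytochrome c reductase, all carried the 3 active marks, with median percentiles of 70.7 for H3K4me3, 54.9 for H3K27ac and 39.5 for Pol II. Uqcrh, the hinge protein, led with scores of 11.1, 7.84 and 3.46 in that order. The core protein gene Uqcrc2 scored 10.5, 5.26 and 2.73, above its partner Uqcrc1 with 7.40, 4.41 and 2.40. Uqcrq, a small ubiquinone-binding subunit, had the lowest H3K4me3 score of the complex, 5.69, and the next to highest Pol II score, 3.15. Uqcrfs1, the Rieske iron-sulfur protein, scored 9.67, 4.07 and 2.51 and also carried H3K27me3 at 3.78. Uqcr10, a small subunit, had the lowest Pol II score of the complex, 2.15.

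Complex IV, cytochrome c oxidase, gave 12 common members, including Ndufa4, now placed in this complex, and Cox7a2l, which joins complexes III and IV. All 12 carried H3K4me3 and H3K27ac, and 11 carried Pol II. Their median percentiles were 67.9 for H3K4me3, 57.3 for H3K27ac and 58.9 for Pol II. Cox5a scored 10.5, 6.84 and 3.32 in that order, Cox4i1 scored 10.3, 6.13 and 3.06, and Ndufa4 scored 9.92, 4.97 and 3.48. Cox5b had the lowest Pol II score of those with a region, 2.23, with 7.53 for H3K4me3 and 3.94 for H3K27ac. Cox7b had 2 adjoining Pol II regions, with scores of 2.16 and 2.29. The complex thus ranged from high to barely listed Pol II. Cox6b1 was the member without Pol II, with 6.28 for H3K4me3 and 3.85 for H3K27ac.

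With regions also listed for other genes kept in, the ATP synthase had the highest medians in every active list. Its 15 genes all carried the 3 active marks, with median scores of 9.91 for H3K4me3, 5.73 for H3K27ac and 3.24 for Pol II. Percentiles above 75 were reached by 8 of the 15 for H3K4me3, 8 for H3K27ac and 6 for Pol II. In complex I they were reached by 6, 2 and 2 of 36. The order of the complexes without shared regions was not computed. Atp5b, Atp5c1, Atp5f1, Atp5g2, Atp5h and Atp5j had no Pol II region listed for them alone. Among the others, Pol II percentiles were 96.3 at Atp5d, 88.4 at Atp5a1, 77.0 at Atp5g3, 69.6 at Atp5g1 and 39.8 at Atp5l. They were 22.1 at Atp5o, 15.3 at Atp5e, 6.42 at Atp5j2 and 3.49 at Atp5k. The catalytic beta subunit gene Atp5b scored 9.91 for H3K4me3, 6.89 for H3K27ac and 4.12 for Pol II. Atp5a1, the alpha subunit that surrounds the stalk together with beta, scored 11.3, 6.97 and 3.96, and Atp5c1, the gamma subunit that turns inside them, scored 11.3, 7.04 and 3.23. These 3 genes thus ranked above the middle of each list. Atp5d, the delta subunit of the central stalk, scored 11.4, 10.1 and 4.80, the highest H3K27ac and Pol II scores of the whole set. Atp5j, coupling factor 6 of the peripheral stalk, scored 11.7, 7.63 and 4.29, with the highest H3K4me3 score of the set.

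Not all ATP synthase genes ranked high. Atp5e, the epsilon subunit of the same stalk as Atp5d, scored 6.86, 3.65 and 2.24 in that order. Atp5j2, a membrane subunit, had 7.97 for H3K4me3 but 2.10 for Pol II, and Atp5k, the e subunit, had 7.61 and 2.06. Atp5g2, 1 of the genes for the c subunit of the rotor, had a low H3K4me3 score for the complex, 6.52, and the next to highest H3K27ac score of the set, 8.43. The other genes for the same c subunit did not match it, with 10.1 for H3K4me3, 8.02 for H3K27ac and 3.46 for Pol II at Atp5g3 and 8.75, 4.22 and 3.24 at Atp5g1. The Atp5s and Atp5sl genes, named after the synthase although their products are not subunits of it, ranked lower. Atp5s had 8.93 for H3K4me3, 2.59 for H3K27ac and no Pol II region. Atp5sl, whose product acts in complex I assembly, had 4.85, 2.19 and 2.32, together with H3K27me3 at 4.0.

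Many members had a neighbour in the same H3K4me3 region, which limits what can be assigned to the member itself. The region was also listed for another gene at 46 of 85 members (54.1%), against 26.5% of protein-coding genes with H3K4me3. A gene on the opposite strand shared it at 40 of 85 (47.1%), against 21.7%. Members with a shared region had a median H3K4me3 width of 8.80 kb, against 6.90 kb in the 39 members without, and in all protein-coding genes the widths were 8.10 kb with a shared region and 6.30 kb without. Over all members the median width was 8.00 kb, against 6.60 kb in all protein-coding genes. For H3K27ac the median widths were 5.20 kb in members and 5.30 kb in all protein-coding genes, and for Pol II 4.80 kb and 4.90 kb. The widest H3K27ac regions were those of Atp5d, 10.2 kb, Ndufb10, 9.4 kb, and Cox7b, 9.2 kb.

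Several of the neighbours on the opposite strand are themselves genes of mitochondria or of protein synthesis. Atp5j shared its regions with Gabpa, a subunit of the transcription factor GABP, and both had scores of 11.7, 7.63 and 4.29 for H3K4me3, H3K27ac and Pol II. Ndufb5 shared with Mrpl47 and Ndufs6 with Mrpl36, both genes of the mitochondrial ribosome. Sdhd shared with Timm8b, a gene of mitochondrial import, and Ndufa7 with Rps28, a gene of the cytosolic ribosome. Ndufb10, with the highest Pol II score of complex I, was in the most crowded region, listed for 6 other genes including Rps2. The 47.4 kb H3K4me3 region of Atp5d was the widest of the set and was also listed for Cirbp, Fam174c and Midn, so its width and scores cannot be assigned to Atp5d alone. Of its 2 Pol II regions (mm9, chr10:79597801-79607600 and chr10:79607701-79616100), with scores of 4.80 and 4.75, the second was listed for Midn as well.

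The tissue-specific isoforms stood apart from the common members. Of the 8 isoforms, 3 carried H3K4me3 (37.5%), 1 carried H3K27ac (12.5%) and 1 carried Pol II (12.5%). All 82 listed common members carried H3K4me3 and H3K27ac and 78 carried Pol II (95.1%). With the 3 unlisted Nduf genes counted as common, these shares were 96.5%, 96.5% and 91.8% of 85, and so part of the contrast comes from how the genes were chosen. These isoform shares were also below those of all protein-coding genes, 68.4%, 51.5% and 41.7%. H3K27me3 was listed at 4 of 8 isoforms (50%), near the 42.5% of all protein-coding genes, and at 15 of 82 common members (18.3%).

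Each isoform can be set beside the common gene of the same subunit. The muscle forms Cox6a2, Cox7a1 and Cox8b gave no H3K27ac or Pol II region. Cox7a1 had a single H3K4me3 region, 3.6 kb wide with a score of 2.12, close to the lowest listed, whereas Cox7a2 scored 9.36 for H3K4me3, 3.68 for H3K27ac and 2.98 for Pol II. Cox6a2 had H3K27me3 alone, at 4.64, whereas Cox6a1 had 9.31, 3.98 and 3.00 for the active marks and no H3K27me3. Cox8b was in no list, whereas Cox8a scored 7.97, 3.81 and 2.42. In each of these pairs H3K27ac and Pol II were on the common gene alone, and H3K4me3 was absent from the muscle form or, at Cox7a1, close to the lowest listed score.

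In the other pairs too, no isoform scored above its partner for an active mark. Ndufa4l2 alone among the isoforms carried H3K27ac and Pol II, and Cox6b1 alone among the partners lacked Pol II. Cox4i2, the lung form, had H3K27me3 alone, at 6.37, whereas Cox4i1 had the active marks at 10.3, 6.13 and 3.06. The testis forms Cox7b2 and Cox8c were in no list, whereas Cox7b had 6.64, 3.72 and 2.29. Cox6b2, also a testis form, had H3K4me3 at 2.52 and H3K27me3 at 9.01, whereas Cox6b1 had H3K4me3 at 6.28, H3K27ac at 3.85 and H3K27me3 at 12. Ndufa4l2, a relative of Ndufa4 that is induced by low oxygen, carried all 4 marks, at 4.82, 3.68 and 2.5 for the active ones and 2.68 for H3K27me3. Ndufa4 scored 9.92, 4.97 and 3.48 with no H3K27me3. The H3K27ac and Pol II regions of Ndufa4l2 were listed for no other gene, while the wider of its 2 H3K4me3 regions was also listed for Shmt2 and Nxph4.

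**Figure D3:**
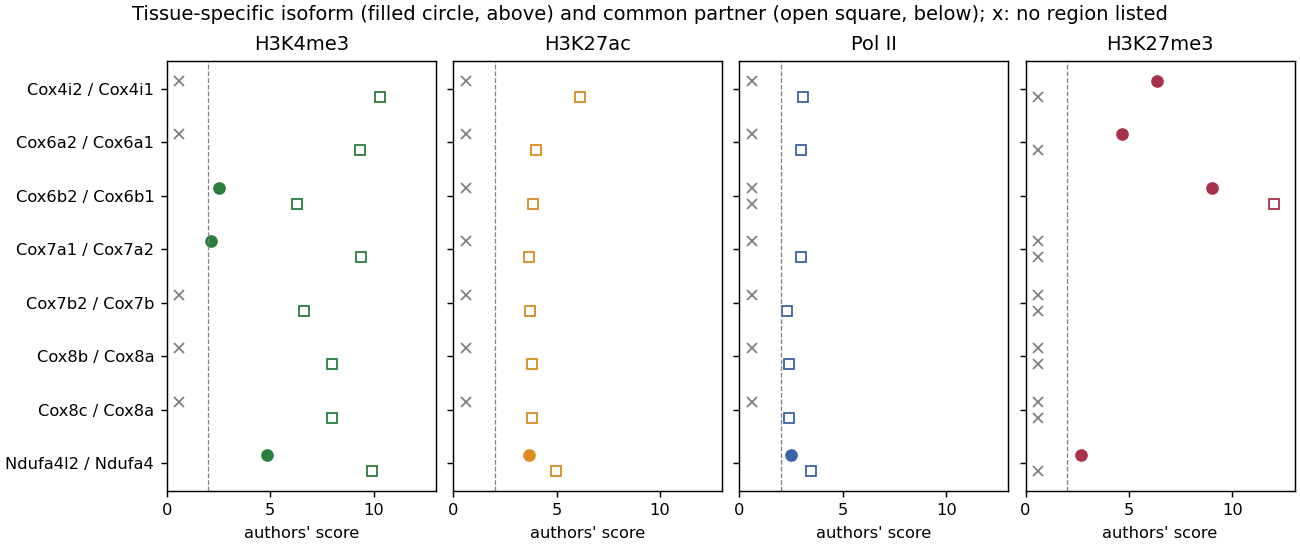
Scores of each tissue-specific isoform beside the common gene of the same subunit, by antibody, with genes in no list marked as such. Every common partner carried H3K4me3 and H3K27ac, and Ndufa4l2 was the only isoform with H3K27ac or Pol II.

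The promoters of these pairs differ in sequence, and the 4 pairs with a window for both genes are shown, so that each isoform can be read beside its partner. Sequences are from RefSeq on GRCm38.p6, 250 bases before to 50 after the annotated start, read in the direction of transcription, and capitals mark matches to the GABP letters CCGGAAG or their reverse complement CTTCCGG. The region lists are on mm9, a different build, and no position was carried from one build to the other.
Cox7a1 promoter (chr7:30183921-30184220, plus strand): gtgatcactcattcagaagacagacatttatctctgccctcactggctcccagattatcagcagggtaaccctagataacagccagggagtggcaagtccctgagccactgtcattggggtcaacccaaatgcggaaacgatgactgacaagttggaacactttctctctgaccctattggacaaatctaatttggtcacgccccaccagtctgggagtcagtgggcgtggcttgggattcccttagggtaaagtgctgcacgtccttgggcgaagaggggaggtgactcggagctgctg
Cox7a2 promoter (chr9:79759804-79760103, minus strand): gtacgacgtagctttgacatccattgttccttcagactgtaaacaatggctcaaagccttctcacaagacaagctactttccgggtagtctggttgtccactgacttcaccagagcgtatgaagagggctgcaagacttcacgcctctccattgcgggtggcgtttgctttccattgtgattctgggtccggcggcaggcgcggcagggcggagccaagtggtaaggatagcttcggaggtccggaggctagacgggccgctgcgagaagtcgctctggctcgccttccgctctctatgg
Cox8b promoter (chr7:140900397-140900696, minus strand): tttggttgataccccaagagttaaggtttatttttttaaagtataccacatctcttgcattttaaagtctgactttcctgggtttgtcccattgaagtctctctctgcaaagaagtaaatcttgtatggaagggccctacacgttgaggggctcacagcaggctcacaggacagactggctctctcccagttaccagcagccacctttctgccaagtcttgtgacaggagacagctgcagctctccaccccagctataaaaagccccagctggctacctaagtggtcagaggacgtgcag
Cox8a promoter (chr19:7217567-7217866, minus strand): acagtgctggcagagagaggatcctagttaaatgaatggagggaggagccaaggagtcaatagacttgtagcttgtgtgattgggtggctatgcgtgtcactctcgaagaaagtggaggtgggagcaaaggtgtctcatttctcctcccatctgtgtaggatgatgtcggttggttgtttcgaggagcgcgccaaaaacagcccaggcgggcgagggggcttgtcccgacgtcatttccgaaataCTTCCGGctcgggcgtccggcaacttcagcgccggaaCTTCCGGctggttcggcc
Cox6b2 promoter (chr7:4753045-4753344, minus strand): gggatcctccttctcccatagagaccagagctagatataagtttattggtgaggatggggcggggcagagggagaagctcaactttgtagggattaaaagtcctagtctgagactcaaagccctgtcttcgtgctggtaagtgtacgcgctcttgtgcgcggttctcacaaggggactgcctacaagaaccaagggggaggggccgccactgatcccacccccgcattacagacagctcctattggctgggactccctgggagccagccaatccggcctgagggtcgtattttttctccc
Cox6b1 promoter (chr7:30626065-30626364, minus strand): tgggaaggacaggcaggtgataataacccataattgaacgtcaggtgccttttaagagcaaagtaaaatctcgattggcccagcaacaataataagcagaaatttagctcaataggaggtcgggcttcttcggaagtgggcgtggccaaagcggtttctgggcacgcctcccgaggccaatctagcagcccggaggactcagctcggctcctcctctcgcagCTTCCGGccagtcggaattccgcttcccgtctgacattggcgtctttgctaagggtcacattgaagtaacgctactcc
Cox7b2 promoter (chr5:71548156-71548455, minus strand): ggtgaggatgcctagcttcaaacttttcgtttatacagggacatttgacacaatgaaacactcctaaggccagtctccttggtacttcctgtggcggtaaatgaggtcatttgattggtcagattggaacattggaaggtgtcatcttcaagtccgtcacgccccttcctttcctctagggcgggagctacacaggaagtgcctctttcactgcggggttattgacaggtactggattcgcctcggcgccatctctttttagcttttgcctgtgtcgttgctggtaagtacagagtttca
Cox7b promoter (chrX:106015450-106015749, plus strand): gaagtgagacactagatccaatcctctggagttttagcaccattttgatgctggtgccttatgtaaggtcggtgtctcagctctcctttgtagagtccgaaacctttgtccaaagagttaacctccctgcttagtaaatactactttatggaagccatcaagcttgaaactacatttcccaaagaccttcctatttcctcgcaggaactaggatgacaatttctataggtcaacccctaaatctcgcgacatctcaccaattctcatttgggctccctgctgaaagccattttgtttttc

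The CpG ratio, the observed number of CpG over that predicted from the C and G content, was 0.33 for Cox7a1 against 0.83 for Cox7a2, 0.11 for Cox8b against 0.84 for Cox8a, and 0.43 for Cox6b2 against 0.81 for Cox6b1. Cox7b2 ran the other way, with 0.56 against 0.37 for Cox7b. The Cox8a window holds 2 GABP matches and the Cox6b1 window 1, while the Cox7a2 and Cox7b windows and the 4 isoform windows hold none. Windows were found for 74 of the 90 genes, 80 windows in all because some genes have several starts, and for 4 of the 8 isoforms. The median CpG ratio was 0.38 in the 4 isoform windows, which ranged from 0.11 to 0.56, and 0.83 in the 76 windows of the other members. It was 0.73 in windows of protein-coding genes with H3K4me3 and 0.19 in those without.

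**Figure D4:**
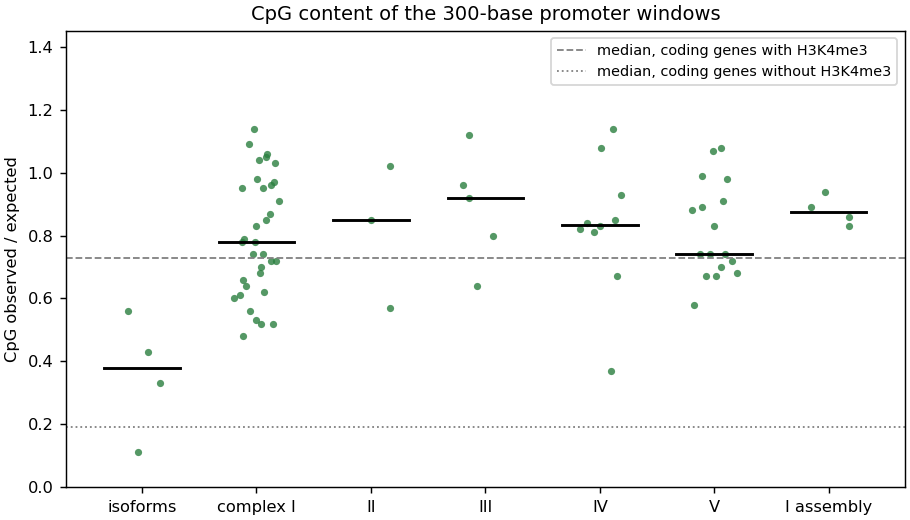
CpG ratio (observed over predicted) of RefSeq promoter windows, 1 point a window, for the isoforms, each complex and the complex I assembly factors, with bars at the group medians and lines at the medians of protein-coding genes with H3K4me3 (0.73) and without (0.19). The 4 isoform windows lie between 0.11 and 0.56, below the medians of all the other groups drawn.

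Letters bound by 3 factors known for respiratory chain genes, NRF1, GABP and YY1, were looked for on both strands. NRF1 was searched as GCGCA, then any base, then GCGC, or the reverse complement, and YY1 as AAGATGGC or GCCATCTT. Sdha holds the most NRF1 matches of any member window together with Ndufb4, 3 each, and Cox6a1 holds 2 with a GABP match, so both are shown with NRF1 and GABP matches in capitals.
Sdha promoter (chr13:74350191-74350490, minus strand): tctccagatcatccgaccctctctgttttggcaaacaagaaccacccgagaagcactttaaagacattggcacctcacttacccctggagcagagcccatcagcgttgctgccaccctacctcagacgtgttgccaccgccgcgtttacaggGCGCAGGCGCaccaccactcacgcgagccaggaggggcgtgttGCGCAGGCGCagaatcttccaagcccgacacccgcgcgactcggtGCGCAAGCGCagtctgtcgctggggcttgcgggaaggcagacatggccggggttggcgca
Cox6a1 promoter (chr5:115348909-115349208, minus strand): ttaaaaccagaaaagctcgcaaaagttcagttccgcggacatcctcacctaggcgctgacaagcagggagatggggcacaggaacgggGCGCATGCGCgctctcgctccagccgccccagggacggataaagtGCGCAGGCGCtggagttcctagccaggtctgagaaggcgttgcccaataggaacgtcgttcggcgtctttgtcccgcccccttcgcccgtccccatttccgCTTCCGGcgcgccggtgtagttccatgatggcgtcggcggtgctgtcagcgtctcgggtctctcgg

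NRF1 letters were present in 19 of 80 member windows (23.8%), against 8.94% of windows of protein-coding genes with H3K4me3 and 4.60% of all promoter windows. GABP letters were present in 17 of 80 (21.2%), against 15.4% and 8.86%. YY1 letters were present in 12 of 80 (15.0%), against 3.86% and 2.75%. Any of the 3 was present in 42 of 80 (52.5%), against 25.2% and 14.7%. The difference was greater for NRF1 and YY1 than for GABP. Windows of the same gene can overlap, so the NRF1 site of Ndufa5 and the YY1 site of Atp5sl were each counted in both windows of their gene. In no member window did matches of different motifs overlap, and none of the 4 isoform windows held a match. A match describes letters in this window and says nothing of binding in these neurons.

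H3K27me3 was listed at 19 members, and it took 3 forms. Cox4i2 and Cox6a2 had it without any active mark. Cox6b2 had it with H3K4me3 alone, and 4.1 kb of its 4.7 kb H3K4me3 region (87.2%) lay under H3K27me3. The other 16 had it together with H3K4me3 and H3K27ac. Of these 16, 9 are complex I subunits, 9 of 36 (25%), against the 42.5% of all protein-coding genes and the 14.6% of those with the 3 active marks, and the remaining ones include Uqcrfs1 of complex III, Cox6b1 of complex IV and Atp5k of complex V.

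At the members with active marks the H3K27me3 region met the promoter at its edge. In the 15 of them that are not isoforms the H3K27me3 region covered a median of 14.3% of the H3K4me3 bases. Over all 17 members with both marks the median was 21.1%, against 90.0% in the 5091 protein-coding genes with both. More than 50% of the H3K4me3 bases were covered at 1 of 17 members, Cox6b2, against 63.9% of those genes. The compared sets differ in H3K27ac, which 16 of the 17 members carried. Of protein-coding genes with H3K27me3, only 2181 carried H3K27ac, so most of the 5091 did not. The H3K4me3 cover was not computed for the protein-coding genes with H3K27ac. For H3K27ac the median cover was 15.9% over 16 members, against 22.6% over 2181 protein-coding genes, and more than 50% was covered at 0 of 16, against 27.7%. Among the accessory subunits of complex I, 1.6 kb of the 7.6 kb H3K4me3 region was covered at Ndufb8, 1.1 of 9.4 kb at Ndufb7 and 1.0 of 9.6 kb at Ndufb10. H3K27me3 at these genes thus neighboured the active region more than it lay over it.

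The side was also the same. At 16 of 16 members with H3K4me3, H3K27ac and H3K27me3 the centre of the H3K27me3 region lay upstream of the centre of the H3K4me3 region, against 75.8% of 2173 protein-coding genes with the same marks. For Ndufa4l2 this holds for the higher scoring of its H3K4me3 regions, while relative to the region that holds its H3K27ac and Pol II the H3K27me3 lies downstream.

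**Figure D5:**
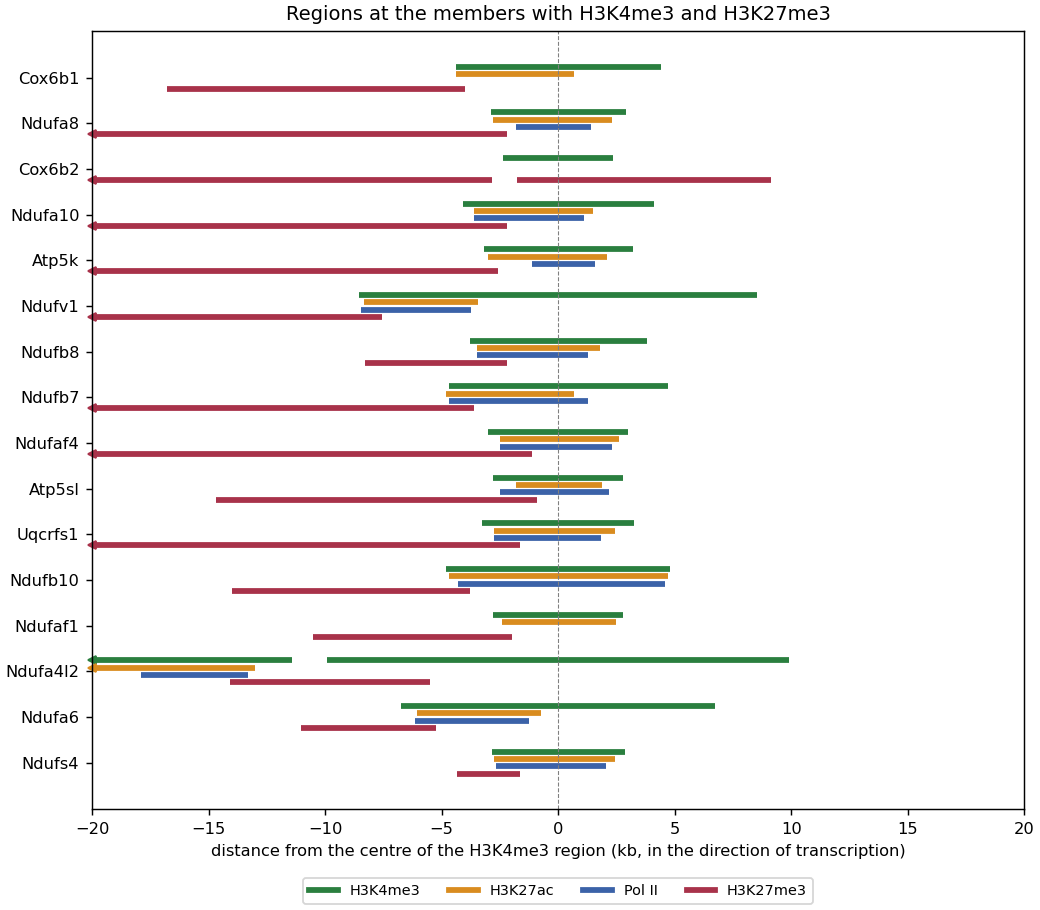
Extent of the listed regions at 16 of the 17 members with both H3K4me3 and H3K27me3, as distance in kb from the centre of the H3K4me3 region in the direction of transcription, with arrowheads where a region runs beyond the axis. H3K27me3 reaches the upstream side of the active regions at 14 of the genes drawn, spans the gap between the 2 H3K4me3 regions of Ndufa4l2 and covers most of the H3K4me3 region at Cox6b2.

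In many cases the H3K27me3 region was listed for a neighbour too, as it was at 14 of the 19 members. Cox6b2, among the 14, also had a region listed for it alone. The same share was not computed over all genes. Of 8929 protein-coding genes with H3K27me3, 6127 had it in a region listed for no other gene. The highest score was at Cox6b1, 12 (mm9, chr7:31413101-31425900), in a region also listed for Etv2, a factor of blood and vessel development, and 0.4 kb of the 8.8 kb H3K4me3 region of Cox6b1 lay in it. The next was Ndufa8, an accessory subunit of complex I, at 11.4 (mm9, chr2:35906501-35971700), in a 65.2 kb region also listed for the developmental factor Lhx6. Ndufa10 had the widest, 75.3 kb at 5.78, shared with 3 olfactory receptor genes. That of Cox6a2 was 61.5 kb wide, that of Ndufaf4 44.5 kb and that of Atp5k 24.5 kb. Such wide regions reach genes well beyond the member. The H3K27me3 of Ndufv1, Ndufa6, Ndufs4, Uqcrfs1 and Cox4i2 was listed for no other gene. Of these, Uqcrfs1 had a 27.1 kb region of which 1.6 kb lay on H3K4me3, and Ndufs4, a complex I accessory subunit, had a 2.7 kb region at 2.14, the lowest of the 19.

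Other genes of mitochondrial energy supply were set beside the members. Over all protein-coding genes the shares were 68.4% for H3K4me3, 51.5% for H3K27ac, 41.7% for Pol II and 42.5% for H3K27me3. All 17 genes of the tricarboxylic acid cycle and pyruvate dehydrogenase carried H3K4me3, 16 carried H3K27ac, 14 Pol II and 3 H3K27me3, with a median H3K4me3 score of 8.62. Suclg2, a succinyl-CoA ligase subunit that uses GDP, had H3K4me3 at 4.58 and H3K27me3 at 4.73 and no other mark. Citrate synthase, Cs, had H3K4me3 at 7.38 and H3K27ac at 3.17 without Pol II. Dld and Mdh2 carried all 4 marks, with H3K27me3 at 4.12 and 4.09. Idh3g, a subunit of the NAD-dependent isocitrate dehydrogenase, had the highest H3K4me3 score of the list, 12.9. The counterpart of Suclg2, Sucla2, which uses ADP, had H3K4me3 at 7.36 and H3K27ac at 4.25. Assembly factors and carriers outside the symbol rule had H3K4me3 and H3K27ac at 30 of 30, Pol II at 29 and H3K27me3 at 3. Cycs, the electron carrier cytochrome c, scored 9.55 for H3K4me3, 6.04 for H3K27ac and 3.03 for Pol II.

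Of 18 known regulators of these genes, 17 carried H3K4me3, 13 H3K27ac, 10 Pol II and 8 H3K27me3. The shares of all protein-coding genes were 68.4%, 51.5%, 41.7% and 42.5% in that order, so H3K27me3 was near the background. Nrf1 scored 9.69 for H3K4me3, 9.83 for H3K27ac and 4.21 for Pol II, and Yy1 scored 12.8, 6.96 and 5.18. The coactivator gene Ppargc1b scored 13.6, 8.36 and 4.47, whereas its relative Ppargc1a scored 5.19 for H3K4me3 and 2.01 for H3K27ac with no Pol II region. Both GABP genes were marked alike, Gabpb1 with 10.7, 8.27 and 4.33, and Tfam, a factor for mitochondrial DNA, had 8.53, 4.44 and 2.62 with H3K27me3 at 3.45. Esrra, an estrogen-related receptor, had 6.45, 4.17 and 3.07 with H3K27me3 at 6.74, and its relative Esrrb had H3K4me3 at 5.03 and H3K27me3 at 7.64 with no other mark. Perm1, a muscle regulator, had H3K27me3 alone, at 5.14. H3K27me3 was highest at Nfe2l2, 11.2, and Ppara, 10.6, both with H3K4me3 and neither H3K27ac nor Pol II. The 3 active marks without H3K27me3 were at 8 of the 18, against 34.8% of all protein-coding genes. Esrrg and Ppard had H3K4me3, H3K27ac and H3K27me3 without Pol II, and Polrmt had H3K4me3 alone. The regulators thus did not share a state.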

How the data were processed

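The deposited files are region lists, 1 for each of 4 antibodies, with position, transcript, symbol and the authors' score of each region relative to input. The 5 samples were grouped by labelled antibody, and the input enters only through those lists. Bowtie 0.12.7, MACS 1.4 and build mm9 are named in the submitters' processing notes, with no role or order. The names of the lists state a window of 3 kb each side of the start, and the narrowest region was 2500 bp. The files hold no reads, so depth, and the precision it gives, is not known.

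Transcripts were matched by RefSeq accession, then by symbol, to the GRCm38.p6 gene table, which gave names only, and 0.341% of lines matched no gene. A gene took its highest score and widest region. The background was 21031 protein-coding genes with a curated transcript. Overlaps counted 1 bp or more. Transcript strand was the same as in the promoter table for 99.8% of 14928 genes. Motifs were exact letter matches. Genes named were the isoform pairs, members with H3K27me3 or lacking an active mark, the 5 highest, 3 lowest and 3 widest per list, the extremes of each complex and those with several or the most shared regions, with others chosen after their values were seen to show a role. A gene that this rule would name is not reported here. The members and lists were chosen with earlier results of these data known. Counting and overlap steps were tested on simulated data. Alternatives kept the upper 50% of each list, cut lists to 7799 regions, left out shared regions or required a larger overlap, and shares were called moved beyond their exact 95% binomial interval. Tables were handled with pandas 2.3.3 and numpy 2.4.6 under Python 3.11.15, ranks came from scipy 1.17.1, and plots from matplotlib 3.10.9.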

Additional observations from a re-analysis of the deposited data

How the results depend on the processing

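Of 63 values recomputed under other settings, 48 stayed within their interval or within 1.5 times the reported count, and 15 moved. Some of the 48 could not move. The Pol II list has just 7799 regions, and genes with no region cannot enter the active state. With only the upper 50% of each list, members with H3K4me3 were 67.8%, with H3K27ac 51.1% and with Pol II 38.9%. Genes with the 3 active marks and no H3K27me3 were then 25 of 90, against 16.2% of all protein-coding genes, and 0 isoforms carried H3K4me3, 0 H3K27ac and 0 Pol II. With each list shortened to its 7799 highest regions, H3K4me3 was at 82.2% of members and at 0 isoforms. Leaving out regions also listed for a gene outside the set left H3K4me3 at 46.7% of members, H3K27ac at 52.2% and Pol II at 48.9%. H3K27me3 was then at 6.67% (all protein-coding genes 29.1%), and 35 genes were in the active state. Under these settings a gene whose H3K27me3 regions were left out counted as without H3K27me3. With an overlap of 0.5 of the narrower region required, 0 members had H3K27ac and H3K27me3 together, against 16 with 1 bp. The cause of these shifts was not tested beyond the smaller number of regions each setting keeps. Counting in 3 unlisted Nduf genes, a setting chosen after the data were seen, moved no share beyond its interval.

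No paired analysis was possible because each antibody had 1 library. A planned comparison of isoform proteins was not run, since no protein table was used here. Depth is unknown, so the lists' lengths cannot be set against it, and the low Pol II scores of many members leave their calls near the lowest listed value.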

Other observations

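Some genes of the same pathway are listed under older symbols and so fall outside the symbol rule. Complex I assembly factor genes Ndufaf5, Ndufaf6, Ndufaf7 and Ndufaf8 carried H3K4me3 at 10.5, 8.40, 10.3 and 7.76 in that order, and H3K27ac at 3.39, 2.82, 3.57 and 3.77. Ndufaf6 had no Pol II region, and the other 3 had 2.83, 2.71 and 2.48. The small ATP synthase subunit gene Atp5md scored 8.40, 6.55 and 3.36 for the active marks, and Atp5mpl scored 5.76 for H3K4me3 and 4.15 for H3K27ac, with H3K27me3 at 4.58 and no Pol II region. Cox4nb, which the rule takes in by its symbol although its product is not a subunit, shared the H3K4me3 region of Cox4i1.

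Isoform pairs elsewhere in energy metabolism were looked at in the same way. Among 11 tissue-specific isoforms, 4 carried H3K4me3, 2 H3K27ac, 2 Pol II and 6 H3K27me3. Among their 11 common partners, 11 carried H3K4me3, 10 H3K27ac, 10 Pol II and 1 H3K27me3. The shares of all protein-coding genes were 68.4%, 51.5%, 41.7% and 42.5% in that order. H3K27me3 scores at Ldhc, Slc25a31, Pgk2, Pgam2 and Pdha2 were 2.01, 2.04, 2.22, 2.70 and 2.71. These were below 3.59, the median of all protein-coding genes with the mark. The creatine kinase gene of muscle, Ckm, had H3K27me3 alone at 5.06, whereas the brain gene Ckb had H3K4me3 at 12.8, H3K27ac at 9.61 and Pol II at 6.04. The muscle enolase gene Eno3 was an exception, with 10.8, 6.32 and 3.25. Another was the muscle carnitine palmitoyltransferase gene Cpt1b, with 7.62, 3.68 and 2.41, whose liver-type partner Cpt1a had H3K4me3 at 5.71 and H3K27me3 at 10.8 and no other mark. Shared regions were not left out of these counts.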
